A study of Homo sapiens with 6 samples.

Results

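Genes whose annotated symbol ends in -AS and a number are long non-coding RNA (lncRNA) genes that the nomenclature places opposite a protein-coding gene, the sense gene that lends them the first part of their symbol. They were taken from the gene names of a long-read transcript count table by that name form alone, without use of any measured value. The table held 272 such antisense genes among 10072 genes, and 2 more genes of the same name form are not reported here. Their counts were summed over all transcript models of a gene and set beside the counts of the sense gene.

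The libraries came from Calu-6, an established human lung cancer cell line that the labels describe as WT. An siRNA was introduced with the lipid reagent RNAiMAX, at 10 nM and for 48 h in both groups. The siControl group (3 libraries) received a non-silencing siRNA. The siDelta2-4 group (3 libraries) received an siRNA against the TERT Delta2-4 splice form, placed on the exon junction that its skipping creates, which TERT forms combining this skip with another also carry. The column names of the table carry the word Empty in both groups. In the methods of the study the cells of this experiment stably expressed either an empty Flag-V5 lentiviral vector or tagged Delta2-4, as selected populations, so both groups were taken as empty-vector cells although the labels call them WT. The study calls the libraries of a group biological replicates, but no label says how the cultures were separated, so p-values measure the spread between these libraries, which may be in part technical. Poly(A) RNA was sequenced as PCR-amplified cDNA on Oxford Nanopore flow cells, in which 1 read can span a whole transcript.

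The libraries held 1037468 to 1106413 counts in siControl and 1070009 to 1309241 in siDelta2-4. TERT had no row in the table, so the targeted gene could not be checked in any library. The epithelial keratins KRT8 and KRT18 had 824 and 1124 counts over the 6 libraries and the mesenchymal filament VIM had 987. EPCAM had 13 counts, and CDH1, the lung lineage genes NKX2-1, SFTPB, SFTPC and NAPSA, the blood genes PTPRC and HBB and the fibroblast genes COL1A1, COL1A2 and DCN had 0. Every row of the table has at least 1 count in a siDelta2-4 library, so a model seen in siControl alone could not appear.

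Natural antisense transcripts are made from the strand opposite to another gene. Some overlap exons of the sense gene, some run through its introns, and others start beside its promoter and run away from it. Many are nuclear, are made at low levels and are degraded by the nuclear exosome. A few act on the sense gene locally through chromatin, transcription or RNA pairing. Measuring them requires knowing the strand of a read. A sense mRNA read backwards can be placed on the antisense strand, with the exon boundaries and length of the sense mRNA. How reads were oriented before counting is not given in the sources used here. From counts alone, reads of a gene and of a gene on its other strand could not be told apart.

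The antisense genes were few-count genes with a handful of extreme exceptions. They summed to 257998 counts, and the 6 most counted of them held 218256 (84.6%). The median antisense gene had 5 counts over the 6 libraries, 61 had 1 count, and 105 had at least 10. In the annotation 190 of the 272 overlapped exons of the sense gene and held 247228 counts. A further 61 overlapped the body of the sense gene but none of its exons, and 14 were divergent, with starts within 1000 bases and gene bodies that do not overlap. The remaining 7 genes had no annotated gene of that symbol (3), another arrangement (2) or the same strand (2). The symbol DNAJC9-AS1 belongs to 2 gene identifiers, which were counted separately (820 and 11 counts).

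Their share of the full library total overlapped between the groups. It was 3.82%, 3.83% and 3.89% in siControl and 3.83%, 3.75% and 3.70% in siDelta2-4, with the libraries of each group ordered from the highest to the lowest total, as in all lists that follow. The mean was 3.85% ± 0.0406 (SD, n = 3) in siControl and 3.76% ± 0.0675 (SD, n = 3) in siDelta2-4 (exact permutation test, 2-sided p = 0.3). The smallest p this design allows is 0.1. With ribosomal protein and mitochondrial genome genes left out of the library total, each siControl library was above each siDelta2-4 library. The shares were then 5.28%, 5.26% and 5.27% in siControl and 5.21%, 5.06% and 5.07% in siDelta2-4 (exact permutation p = 0.1). The 6 most counted antisense genes were also apart, at 3.28% ± 0.0147 and 3.16% ± 0.0694 of the library (SD, n = 3, exact permutation p = 0.1).

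Almost none of these counts lay on annotated transcripts. Models matching an annotated transcript held 2914 counts and unannotated models 255084 (98.9%), whereas annotated transcripts held 45.3% of the counts of the whole table. Models classed as incomplete splice matches, a class meant for part of an annotated splice chain, held 226898 counts (87.9%). The most counted ZBTB11-AS1 model was of this class with 6 exons, while ZBTB11-AS1 is annotated with 1 exon. For KIF23-AS1 it had 4 exons against at most 3 in the annotation. The class therefore does not show that these models are parts of the antisense gene's own transcripts. Models with a new combination of annotated splice sites held 23306 and models with a new splice site 4880. Only 44 antisense genes had any unannotated model, and in each of the 44 the most counted model was unannotated. The other 228 were counted on annotated transcripts alone. The study describes a filter on a minimum read count per transcript, yet 61 antisense genes had 1 count. Which models the filter was applied to is not clear from this. Applied to unannotated models alone, it would leave genes with few counts on annotated transcripts only. Its part in this split was not tested.

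The counts of these 44 genes were set beside the most counted gene of the opposite strand, overlapping it or else within 100 kb, with at least 20 counts. This pairing was chosen after the values had been seen. A counterpart existed for 42 of the 44, and it was the sense gene of the name in 26 and another gene in 16. The median ratio of antisense to counterpart counts was 0.941 (lowest 0.208, highest 14.2). The ratio lay between 0.5 and 2 in 37 pairs, and between 0.8 and 1.25 in 30. For the most counted gene on the same strand within the same limits, available for 15 of the genes, the median ratio was 3.65. Of these ratios 3 lay between 0.5 and 2.

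**Figure D1:**
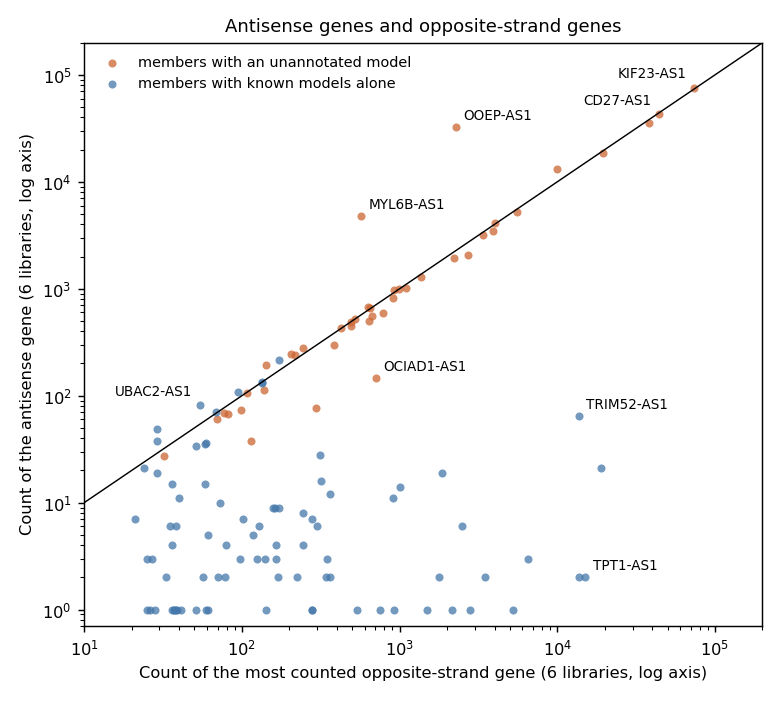
Counts of each antisense gene over the 6 libraries (vertical, log axis) against those of the most counted gene of the opposite strand (horizontal, log axis), with the line of equal counts. Orange points, antisense genes with an unannotated model, lie along the line in 37 of 42 cases, as do 12 of the 15 blue points, genes counted on known models alone, with at least 20 counts. The 70 blue points under 20 counts spread below the line (median ratio 0.0255).

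The most counted antisense gene was KIF23-AS1 (ENSG00000259426.6, chr15:69396904-69415029, minus strand, GRCh38). KIF23 encodes a kinesin of the cytokinetic midzone and had 1 count in all. KIF23-AS1 counted 12796, 12558 and 11272 in the siControl libraries, against 14969, 12816 and 11776 in siDelta2-4. RPLP1, a stalk protein of the large ribosomal subunit whose gene lies 37785 bases away on the other strand, counted 12221, 11745 and 10705 in the siControl libraries, against 14289, 12649 and 12084 in siDelta2-4. The totals were 76187 and 73693. Within each group the counts of both genes ranked as the library totals did, so their shared order does not set this pair apart. The most counted model of both genes had 4 exons, although no annotated KIF23-AS1 transcript has more than 3.

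CD27-AS1 (ENSG00000215039.9, chr12:6439001-6451607, minus strand) is named for CD27, a lymphocyte receptor gene that had 0 counts. It had 42707 counts, beside 44093 of the glycolytic gene GAPDH on the other strand at a distance of 82905 bases. In siControl CD27-AS1 had 5962, 5856 and 7456 counts and GAPDH 6148, 6193 and 7457. The siControl library with the lowest total was the highest of its group for both. In siDelta2-4 CD27-AS1 had 8730, 8255 and 6448 counts and GAPDH 8911, 8238 and 7146. The most counted model of both genes had 9 exons, and annotated CD27-AS1 transcripts have at most 7.

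The same held where the names matched and where they did not. RPL30-AS1 had 35444 counts beside 38386 of RPL30, a ribosomal protein gene. ZBTB11-AS1 had 18465 beside 1 count of ZBTB11 and 19558 of the ribosomal protein gene RPL24, which lies 1874 bases away. ENTPD3-AS1 had 13191 beside 0 of ENTPD3 and 9933 of RPL14, and PLXNB3-AS1 had 4115 beside 0 of PLXNB3 and 4047 of SSR4, a translocon-associated protein gene. TUBA1B-AS1 had 5249 counts beside 5530 of the alpha-tubulin gene TUBA1B, SLC25A5-AS1 had 3496 beside 3902 of the ADP/ATP carrier SLC25A5, and VIM-AS1 had 994 beside 987 of VIM.

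Exon numbers mostly matched those of the counterpart. In 37 of the 42 pairs the most counted model had as many exons as that of the counterpart. In 31 of the 44 genes it had more exons than any annotated transcript of the antisense gene itself. The most counted ZBTB11-AS1 model had 6 exons, as had that of RPL24, while ZBTB11-AS1 is annotated with 1 exon. CPVL-AS2 had 13 exons, as had CPVL, a serine carboxypeptidase gene, against at most 6 in its annotation. Lengths were also close in many pairs, such as 493 and 498 bases for RPL30-AS1 and RPL30 or 1622 and 1627 for TUBA1B-AS1 and TUBA1B, but 524 and 1174 for KIF23-AS1 and RPLP1. The table gives no coordinates for its models, so their positions were not analysed here.

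**Figure D2:**
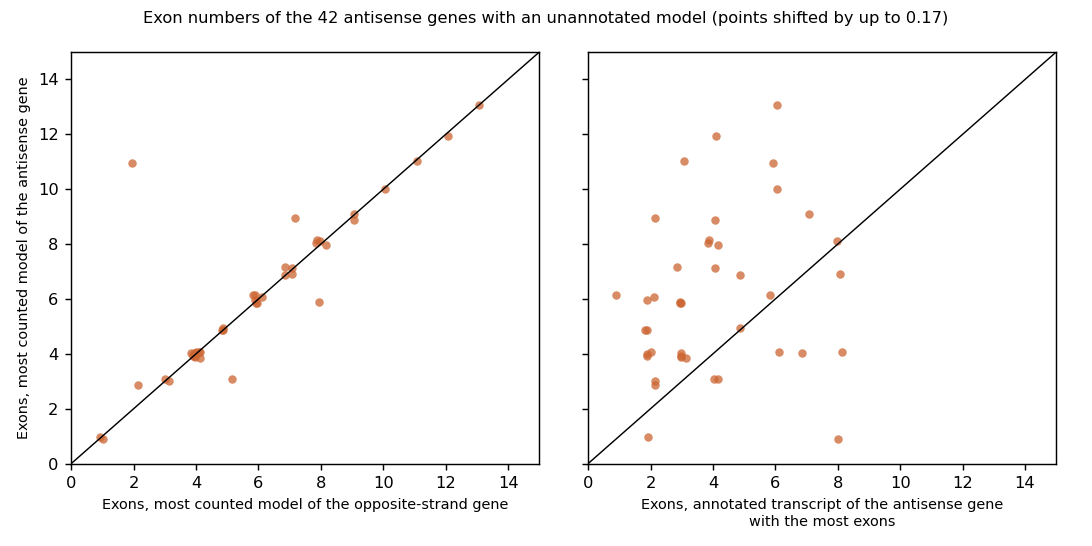
Exons in the most counted model of the 42 antisense genes with an unannotated model and a counterpart (vertical) against exons in the most counted model of the opposite-strand gene (left) and against the annotated transcript of the antisense gene with the most exons (right). Points lie on the line of equal numbers in 37 of 42 cases on the left and are spread mostly above it on the right; points are shifted by up to 0.17 for visibility.

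Of the 42 pairs, 5 departed from near-equal counts. OOEP-AS1 (ENSG00000231332.2, chr6:73369704-73387717, plus strand) had 32262 counts, all on 1 model with 1 exon and 403 bases. OOEP, an oocyte gene, had 0 counts. The opposite strand holds RPL39P3, a processed pseudogene of the ribosomal protein gene RPL39, which had 2280 counts, 1460 of them in the siControl library with the highest total and 134 to 194 in the other 5. RPL39 itself had 1211. Reads of near-identical copies can be split between them, so the values of OOEP-AS1 and RPL39P3 are uncertain.

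MYL6B-AS1 had 4791 counts beside 571 of MYL6B. The neighbouring myosin light chain gene MYL6 had 4458, but does not overlap MYL6B-AS1 and was therefore not chosen. The other 3 had fewer counts than the counterpart, with ratios of 0.208 for OCIAD1-AS1 and OCIAD1, 0.259 for RNASEH2B-AS1 and the lncRNA gene DLEU1 and 0.333 for CLDN10-AS1 and the claudin gene CLDN10. RNASEH2B-AS1 had 76 counts beside 83 of its own sense gene RNASEH2B, a subunit of ribonuclease H. The 2 genes without a counterpart were KCNMB2-AS1 (101 counts) and PIK3CD-AS2 (43 counts).

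Set beside the sense gene of the name, 76 exon-overlapping pairs had at least 20 counts. Of these 31 had a ratio between 0.5 and 2, and in 19 the sense gene was at 0, so that no ratio could be formed. The median over the other 57 was 0.949, and 1.06 over all 76 with the pairs at 0 ranked highest. Of 21 pairs that overlapped in gene bodies alone, 12 had a ratio (median 0.572, or 0.909 over all 21). Of 8 divergent pairs, 5 had a ratio (median 0.158, or 18.6 over all 8), and with at least 50 counts the median was 1.52 over 3, so no order of the arrangements was read from these values. On annotated transcripts alone the median of the exon-overlapping pairs was 0.0352, where 14 of 64 had a sense gene at 0. A ratio of summed counts follows the most counted genes and does not describe the typical pair. In the exon-overlapping pairs KIF23-AS1 held 76187 of 246774 antisense counts, and RPL30 held 38386 of 67373 sense counts. The ratio of summed counts did not differ between the groups beyond its spread, at 3.64 ± 0.0391 in siControl and 3.68 ± 0.161 in siDelta2-4 for exon-overlapping pairs (SD, n = 3, exact permutation p = 0.9). For the other overlapping pairs it was 1.58 ± 0.239 and 1.49 ± 0.125 (exact permutation p = 0.6). Divergent pairs had 0.0682 ± 0.00896 and 0.0682 ± 0.00396 (exact permutation p = 1).

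Of the antisense genes counted on annotated transcripts alone, 33 had at least 20 counts. An opposite-strand counterpart, found by the same rule as for the 44 genes, existed for 15 of these, and the ratio lay between 0.5 and 2 in 12 (median 0.985). Among the 70 such genes with a counterpart but under 20 counts, it did in 1. A count of at least 20 was required of every counterpart, so a member needed at least 10 to reach a ratio of 0.5. The sense gene of the name had 0 counts in 19 of the 33, and in 8 the antisense count was between 0.5 and 2 times that of the sense gene. MAPKAPK5-AS1 had 124 counts beside 1 of MAPKAPK5, a stress-activated kinase gene. ELFN1-AS1 had 103, DLGAP1-AS2 had 74, NUTM2A-AS1 had 71 and THAP9-AS1 had 41, each beside a sense gene at 0.

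The members of this kind with a similarly counted sense gene included KRT10-AS1, with 216 counts beside 171 of the keratin gene KRT10. PITPNA-AS1 had 132 beside 134 of PITPNA, a phosphatidylinositol transfer protein gene. PXN-AS1 had 70 beside 68 of PXN, which encodes the focal adhesion protein paxillin. In these 3 pairs the sense counts lay almost wholly on unannotated models. On annotated transcripts KRT10 and PITPNA had 0 counts and PXN had 2. OIP5-AS1, a much studied cytoplasmic lncRNA also known as Cyrano, counted 11, 3 and 5 in the siControl libraries, against 7, 9 and 14 in siDelta2-4, and OIP5 had 29 in all. These groups of libraries overlapped.

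For antisense genes counted on annotated transcripts alone, the share of the library was higher in each siDelta2-4 library than in each siControl library. It was 0.0362%, 0.0343% and 0.0333% in siControl and 0.0425%, 0.0441% and 0.0502% in siDelta2-4. The means were 0.0346% ± 0.00151 and 0.0456% ± 0.00407 (SD, n = 3, exact permutation p = 0.1, the smallest possible). The row rule of the table acts in the same direction, since a transcript counted in siControl alone has no row. All 272 antisense genes were counted in siDelta2-4 and 188 of them in siControl. The direction was thus favoured in advance, and the p-value does not allow for this. The part of the row rule in the difference was not tested.

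The row rule also bears on the 84 antisense genes with 0 counts in siControl, which had at most 9 counts in siDelta2-4. ZFHX4-AS1 had 2, 4 and 3 counts in the siDelta2-4 libraries, TIPARP-AS1 3, 1 and 3, RTCA-AS1 5, 0 and 1, ZEB1-AS1 1, 2 and 3 and ATXN1-AS1 1, 1 and 3. A count of 0 allows up to 3 counts per siControl library, by counting error alone. Of the 15 siDelta2-4 values of these 5 genes, 2 were above that limit. Of other well-known members, LOXL1-AS1 had 14 counts in siControl and 20 in siDelta2-4, GABPB1-AS1 had 4 and 6 and PSMA3-AS1 had 1 and 1.

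Differences between the groups were fitted by edgeR's quasi-likelihood test on the whole table, with genes called at a Benjamini-Hochberg adjusted p under 0.1. Of 3888 genes that passed the filter on low counts, 504 were called (13.0%), 7.00% higher and 5.97% lower in siDelta2-4. Only 51 of the 272 antisense genes passed the filter, 40 of them with an unannotated model and 11 on annotated transcripts alone. Of these 51, 12 were called, 5 higher and 7 lower in siDelta2-4 (23.5%). The split was 6 and 5 when counts were scaled by library totals alone, and 4 and 4 with the trend along transcript length removed. The libraries of the groups did not overlap in 17 of the 51 (33.3%), against 26.0% of all tested genes. The median log2 fold change was 0.06, against 0.03 over all tested genes. Leaving out 1 library at a time gave 3 to 19 called antisense genes. There were 19 (35.8%) when the siControl library of lowest total was left out, beside 25.4% of all tested genes. When any other library was left out there were 3 or 4, that is 5.66% to 7.69%, beside 4.85% to 7.54% of all tested genes.

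**Figure D3:**
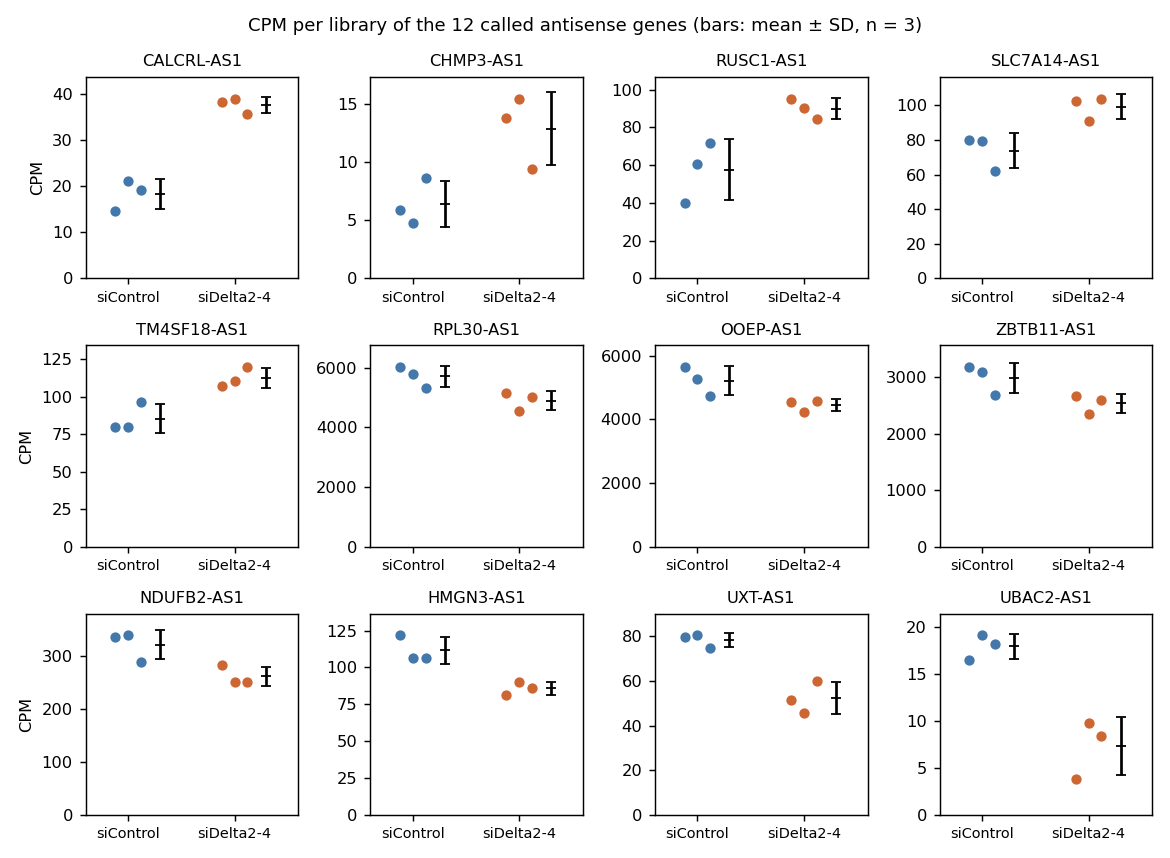
CPM (counts scaled to a common library size with TMM factors) of the 12 called antisense genes in each library, ordered from the highest to the lowest total within siControl and siDelta2-4; black bars are the mean ± SD of 3 libraries. The groups do not overlap in any of the 12 panels, and the fitted log2 fold changes exceed 1 in size in CALCRL-AS1 (1.04), CHMP3-AS1 (1.01) and UBAC2-AS1 (-1.30).

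CALCRL-AS1 (ENSG00000224063.6, chr2:187003220-187556288, plus strand) kept its call in all 6 fits that left out 1 library. It counted 15, 22 and 20 in the siControl libraries, against 50, 48 and 38 in siDelta2-4, so that every siDelta2-4 library was above every siControl library. The mean rose from 18.3 ± 3.32 to 37.7 ± 1.82 CPM (SD, n = 3), that is by 1.04 ± 0.23 on the log2 scale (SE, edgeR adjusted p = 0.00517). In bulk RNA, fewer or more cells making a transcript and a change per cell cannot be told apart. CALCRL, the calcitonin receptor-like receptor, had 0 counts. The counterpart on the other strand was TFPI, the inhibitor of the tissue factor pathway of coagulation, with 11, 15 and 24 counts in siControl, against 37, 28 and 27 in siDelta2-4 (log2 fold change 0.66 ± 0.28, edgeR adjusted p = 0.141).

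RUSC1-AS1 (ENSG00000225855.7, chr1:155316863-155324176, minus strand) counted 41, 63 and 75 in the siControl libraries, against 124, 111 and 90 in siDelta2-4. Its level rose by a log2 fold change of 0.65 ± 0.17 (edgeR adjusted p = 0.0187), which was 0.43 once the siControl library of highest total was left out (edgeR adjusted p = 0.167). RUSC1 had 2 counts. FDPS, the farnesyl diphosphate synthase of the mevalonate pathway, is the counterpart on the other strand and counted 52, 88 and 85 in the siControl libraries, against 160, 151 and 106 in siDelta2-4. It rose as well, with a log2 fold change of 0.67 ± 0.16 (edgeR adjusted p = 0.00807), and the most counted models of both genes had 10 exons.

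The other 3 antisense genes that rose were SLC7A14-AS1, TM4SF18-AS1 and CHMP3-AS1. SLC7A14-AS1 counted 82, 83 and 65 in the siControl libraries, against 134, 112 and 111 in siDelta2-4 (log2 fold change 0.42 ± 0.14, edgeR adjusted p = 0.0687). RPL22L1, a ribosomal protein paralogue 3882 bases away on the other strand, rose by 0.49 ± 0.12 on the log2 scale (edgeR adjusted p = 0.0151), while SLC7A14 had 0 counts. TM4SF18-AS1 counted 82, 83 and 101 in the siControl libraries, against 140, 136 and 128 in siDelta2-4 (0.39 ± 0.13, edgeR adjusted p = 0.0662). Its sense gene TM4SF18, a tetraspanin-like membrane protein gene, rose by 0.55 ± 0.14 on the log2 scale (edgeR adjusted p = 0.0140).

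CHMP3-AS1 counted 6, 5 and 9 in the siControl libraries, against 18, 19 and 10 in siDelta2-4, the fewest of the called genes (1.01 ± 0.37, edgeR adjusted p = 0.0934). The sense gene CHMP3, of the ESCRT-III membrane scission complex, was at 0.36 ± 0.34 (edgeR adjusted p = 0.570). OCIAD1-AS1 lay just outside the threshold, with 13, 8 and 28 counts in siControl, against 36, 30 and 32 in siDelta2-4 (0.79 ± 0.31, edgeR adjusted p = 0.112).

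UBAC2-AS1 was the only called gene counted on annotated transcripts alone, and the only divergent one. UBAC2-AS1 (ENSG00000228889.9, chr13:99181223-99200757, minus strand) lies 17 bases from UBAC2, a ubiquitin-associated protein gene of the endoplasmic reticulum, by the outermost starts in Gencode. Both promoter windows are shown because they overlap and UBAC2-AS1 is the one called gene of this arrangement. The sequences are from RefSeq (GRCh38.p14), from 250 bases before the start to 50 after it, each 5′ to 3′ on the strand of its gene, and the RefSeq starts lie 97 bases apart. Capitals mark the 196 bases that lie in both windows (chr13:99200708-99200903).

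UBAC2-AS1: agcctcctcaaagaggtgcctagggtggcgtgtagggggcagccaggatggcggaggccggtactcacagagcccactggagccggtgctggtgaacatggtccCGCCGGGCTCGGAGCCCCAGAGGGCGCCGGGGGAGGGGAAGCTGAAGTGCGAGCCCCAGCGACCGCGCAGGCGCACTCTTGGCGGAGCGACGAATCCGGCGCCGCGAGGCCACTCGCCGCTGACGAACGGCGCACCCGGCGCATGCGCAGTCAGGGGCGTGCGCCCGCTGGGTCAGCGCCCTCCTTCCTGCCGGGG

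UBAC2: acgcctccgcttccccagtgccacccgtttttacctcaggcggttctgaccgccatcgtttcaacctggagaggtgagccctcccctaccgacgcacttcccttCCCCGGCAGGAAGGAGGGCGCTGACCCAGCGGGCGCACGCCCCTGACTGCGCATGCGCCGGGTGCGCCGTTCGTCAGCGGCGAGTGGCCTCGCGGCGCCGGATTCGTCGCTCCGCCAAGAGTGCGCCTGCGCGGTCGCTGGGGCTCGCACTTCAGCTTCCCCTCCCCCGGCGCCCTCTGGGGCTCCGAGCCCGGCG

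The UBAC2-AS1 window (chr13:99200708-99201007, minus strand) holds 34 CpG dinucleotides and the UBAC2 window (chr13:99200604-99200903, plus strand) 38, against a median of 14 over 35116 promoters of the same length. At least 34 CpG were found in 15.6% of those promoters and at least 38 in 9.91%.

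UBAC2-AS1 counted 17, 20 and 19 in the siControl libraries, against 5, 12 and 9 in siDelta2-4, with no overlap between the groups. Of its 82 counts 81 lay on 1 annotated transcript with 2 exons and 1765 bases. The mean fell from 18.0 ± 1.32 to 7.34 ± 3.10 CPM (SD, n = 3), a change of -1.30 ± 0.34 on the log2 scale (SE, edgeR adjusted p = 0.0188). With the siDelta2-4 library of highest total left out, it was -0.97 (edgeR adjusted p = 0.155).

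UBAC2 did not pass the filter on low counts, with 5, 11 and 5 counts in siControl, against 11, 13 and 9 in siDelta2-4. Its means were 6.74 ± 3.30 and 9.14 ± 1.23 CPM (SD, n = 3, exact permutation p = 0.3). UBAC2-AS1 made up 77.3%, 64.5% and 79.2% of the counts of the pair in siControl and 31.2%, 48.0% and 50% in siDelta2-4. Each siControl library was above each siDelta2-4 library (means 73.7% ± 7.97 and 43.1% ± 10.3, SD, n = 3, exact permutation p = 0.1, the smallest possible). This pair was singled out after its values had been seen.

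Overlapping windows went with very unequal counts at another locus. TPT1-AS1 lies 61 bases from TPT1 by the outermost Gencode starts and 162 by the RefSeq starts, which encodes the abundant translationally controlled tumour protein, and the windows are shown for comparison with the UBAC2 pair. Here 261 bases lie in both windows (capitals, chr13:45341134-45341394).

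TPT1-AS1: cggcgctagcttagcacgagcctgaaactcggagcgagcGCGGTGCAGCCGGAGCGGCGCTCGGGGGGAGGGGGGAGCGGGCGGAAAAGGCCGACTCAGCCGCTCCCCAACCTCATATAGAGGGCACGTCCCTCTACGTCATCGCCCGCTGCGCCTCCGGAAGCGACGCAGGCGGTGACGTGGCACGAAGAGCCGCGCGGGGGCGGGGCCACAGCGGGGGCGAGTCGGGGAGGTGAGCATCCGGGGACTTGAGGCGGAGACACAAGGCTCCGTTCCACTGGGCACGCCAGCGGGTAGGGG

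TPT1: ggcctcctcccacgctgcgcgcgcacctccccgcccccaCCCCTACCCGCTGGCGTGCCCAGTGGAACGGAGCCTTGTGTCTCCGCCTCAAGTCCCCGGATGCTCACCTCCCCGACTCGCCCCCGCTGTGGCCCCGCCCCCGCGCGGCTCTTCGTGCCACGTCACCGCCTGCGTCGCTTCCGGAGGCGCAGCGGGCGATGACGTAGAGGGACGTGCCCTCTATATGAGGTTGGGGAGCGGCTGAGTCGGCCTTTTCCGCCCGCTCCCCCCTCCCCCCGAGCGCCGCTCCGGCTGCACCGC

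The TPT1-AS1 window (chr13:45341095-45341394, plus strand) and the TPT1 window (chr13:45341134-45341433, minus strand) hold 38 and 37 CpG. TPT1-AS1 had 2 counts, 1 in each of 2 siDelta2-4 libraries, and TPT1 had 15061. No unannotated model was assigned to TPT1-AS1. The DNAJC9-AS1 gene with 820 counts, also divergent, had all of them on 1 unannotated model with 3 exons. Its opposite-strand counterpart MRPS16 had 902 counts. The difference between these loci was not tested.

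The 11 tested antisense genes on annotated transcripts included only this 1 call. The log2 fold changes of the other 10 lay between -0.12 (TRIM52-AS1) and 0.84 (DLGAP1-AS2). DLGAP1-AS2 counted 7, 11 and 6 in the siControl libraries, against 12, 19 and 19 in siDelta2-4, and its groups overlapped once scaled to CPM (0.84 ± 0.37, edgeR adjusted p = 0.156). MAPKAPK5-AS1 was at -0.07 ± 0.31 (edgeR adjusted p = 0.924) and ELFN1-AS1 at 0.62 ± 0.31 (edgeR adjusted p = 0.225). Differences of the size of these SEs were not detectable at such counts.

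**Figure D4:**
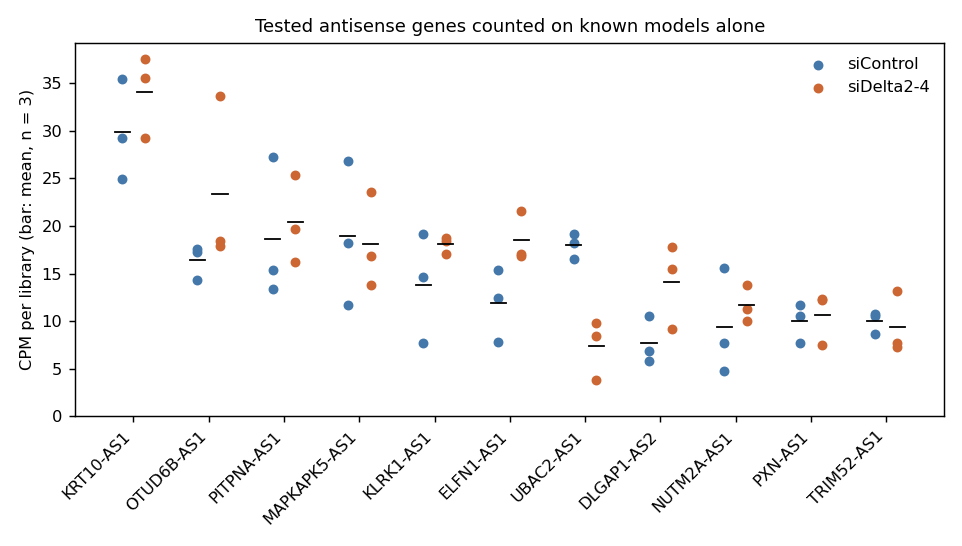
CPM (scaled by TMM factors) in each library of the 11 tested antisense genes counted on known models alone, siControl in blue and siDelta2-4 in orange, with a black bar at the mean of 3 libraries. The groups are apart in UBAC2-AS1, lower in siDelta2-4 (18.0 against 7.34 CPM), and overlap in 8 of the other 10.

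The other 6 genes that fell were all counted mainly on unannotated models. UXT-AS1 (ENSG00000267064.2) counted 82, 84 and 78 in the siControl libraries, against 67, 56 and 64 in siDelta2-4. Its level fell by a log2 fold change of -0.59 ± 0.16 (edgeR adjusted p = 0.0219), which was -0.50 once the siDelta2-4 library of middle total was left out (edgeR adjusted p = 0.128). UXT, a prefoldin-like chaperone gene, counted 60, 88 and 84 in the siControl libraries, against 58, 57 and 78 in siDelta2-4, which overlapped (-0.46 ± 0.19, edgeR adjusted p = 0.127).

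HMGN3-AS1 fell by a log2 fold change of -0.38 ± 0.13 (edgeR adjusted p = 0.0731) and its sense gene HMGN3, a nucleosome-binding protein gene, by -0.43 ± 0.14 (edgeR adjusted p = 0.0585). NDUFB2-AS1 fell by -0.30 ± 0.10 (edgeR adjusted p = 0.0731), and NDUFB2, of respiratory complex I, was at -0.25 ± 0.10 (edgeR adjusted p = 0.121). Smaller falls were fitted for 3 antisense genes set beside ribosomal protein genes or a copy of one, OOEP-AS1 (-0.23 ± 0.08, edgeR adjusted p = 0.0709), ZBTB11-AS1 (-0.23 ± 0.08, edgeR adjusted p = 0.0724) and RPL30-AS1 (-0.22 ± 0.08, edgeR adjusted p = 0.0749).

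RPL30 was at -0.18 ± 0.08 (edgeR adjusted p = 0.166) and RPL24 at -0.17 ± 0.08 (edgeR adjusted p = 0.212). RPL39P3 was called at -1.89 ± 0.48 (edgeR adjusted p = 0.0149), a value that rested on 1 siControl library and was 0.18 without it (edgeR adjusted p = 0.556). Apart from CALCRL-AS1, RUSC1-AS1, UXT-AS1 and UBAC2-AS1, each of the called antisense genes lost its call in 5 or 6 of the 6 fits that left out 1 library.

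The log2 fold changes of antisense gene and counterpart were close in most pairs. Both were tested in 39 of the pairs with an unannotated model, and the sign was the same in 35. The median absolute difference of the log2 fold changes was 0.09. Across these 39 pairs Spearman's rho was 0.83 and Pearson's r 0.62, as a description over genes that share the same 6 libraries. In 5 pairs both were called, in 6 the antisense gene alone and in 1 the counterpart alone. The difference between the genes of a pair was not tested. The pair with the counterpart alone was BSG-AS1 (-0.26 ± 0.16, edgeR adjusted p = 0.336) and BSG, the cell surface protein basigin (-0.48 ± 0.16, edgeR adjusted p = 0.0536).

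**Figure D5:**
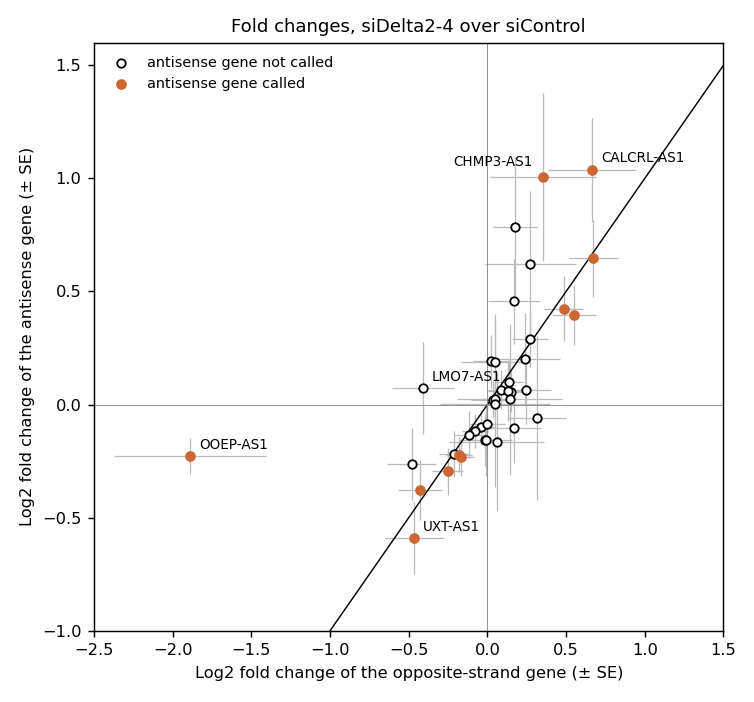
Log2 fold change (siDelta2-4 over siControl, ± SE) of the antisense gene against that of the opposite-strand counterpart in 39 pairs, with the line of equal change. Most pairs lie near the line (median absolute difference 0.09), and OOEP-AS1 stands far to the left, where 1 siControl library sets the value of RPL39P3.

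Sense genes of the name were called about as often as genes in general. Of 43 tested, 6 were called (13.95%, against 13.0% of all tested genes). TM4SF18 and RALY, an RNA-binding protein gene (log2 fold change 0.81 ± 0.21, edgeR adjusted p = 0.0171), rose. HMGN3, BSG, the proteasome assembly chaperone gene PSMG3 (-0.58 ± 0.18, edgeR adjusted p = 0.0434) and the mitochondrial ribosomal protein gene MRPL20 (-0.45 ± 0.11, edgeR adjusted p = 0.0145) fell. RALY had 364 counts, 0 of them on annotated transcripts, and BSG had 377 of 669 on them. The other 4 were counted on annotated transcripts alone. The antisense genes of RALY, PSMG3 and MRPL20 had 12, 28 and 14 counts and could not be tested.

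Other lncRNA genes were counted for comparison. Of 214 tested lncRNA genes 35 were called (16.4%, against 13.0% of all tested genes). Among genes named -DT, divergent transcripts, 15 of 156 were tested and 3 called (20%), of which 1 rose (MMADHC-DT) and 2 fell (RPL37A-DT and H2AZ1-DT). On annotated transcripts MMADHC-DT had 0 of 326 counts, RPL37A-DT 6 of 17089 and H2AZ1-DT 0 of 6440. A near absence of annotated counts was thus not confined to genes named -AS. Other tested -DT genes, such as RBM33-DT (101 of 101), were counted on annotated transcripts alone. Among genes named LINC or SNHG, 22 of 166 were tested and 2 rose (9.09%), LINC00702 and LINC00973. Of 31 listed genes of the nuclear exosome and its adaptors, which degrade many antisense RNAs, 8 were tested and 2 rose (25%). These were the exosome cofactors MPHOSPH6 (log2 fold change 0.82 ± 0.24, edgeR adjusted p = 0.0334) and C1D (0.69 ± 0.25, edgeR adjusted p = 0.0913), while the core subunits EXOSC1, EXOSC5, EXOSC7 and EXOSC8 had log2 fold changes between -0.28 and 0.18.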

How the data were processed

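Libraries of Calu-6 cells (3 siControl, 3 siDelta2-4) were made with an Oxford Nanopore PCR-cDNA kit. Reads were aligned to GRCh38.p14 with minimap2 2.14 and handled with SAMtools 1.13, per the labels. The authors corrected reads with TranscriptClean, assigned them to Gencode transcript models with TALON, and deposited raw counts per transcript model, not normalized. The study also describes a filter on a minimum read count per transcript. Counts were summed per gene identifier (10072 genes), and antisense genes were taken by symbol. Arrangement and coordinates came from the Gencode annotation of the same build, and promoters from RefSeq, which held 214 of the 272 antisense genes.

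The test was edgeR 4.0.16 (R 4.3.3; filterByExpr, TMM, glmQLFit and glmQLFTest, 2-sided) with Benjamini-Hochberg adjustment over all tested genes. Shares and ratios were compared by exact permutation tests (scipy 1.17.1). Counts alone limit precision, at 1037468 to 1309241 per library, and intervals or floors cover counting error only, since the reads are PCR copies without molecular identifiers. The fit was tested on simulated data. Alternatives were DESeq2 1.42.0, its size factors, library totals, other filters, annotated transcripts alone, removal of a trend with transcript length, a replicate block and leaving out each library. Same-numbered libraries did not deviate together, so the numbers were not taken to pair them.

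Genes named in the text were the 10 antisense genes with the highest mean CPM, every called one, their sense genes, up to 5 with 0 counts in siControl, a few well-known members and the genes at the threshold. Others were named after their values were seen. The members and lists were chosen with earlier results of these data known. No labels map columns to single samples, so columns were assigned by group.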

Additional observations from a re-analysis of the deposited data

How the results depend on the processing

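The 12 called antisense genes (23.5%, beside 13.0% of all tested genes) numbered 12 with DESeq2 size factors (23.5%, beside 13.2%). They numbered 11 with library totals alone (21.6%, beside 13.2%) and 10 with at least 10 counts in every library (27.0%, beside 15.7%). Without a filter 8 of 272 were called (2.94%, beside 4.13%). With the length trend removed 8 were called (15.7%, beside 12.1%), and 5 of these were among the 12. There were 4 at an adjusted p under 0.05 (7.84%, beside 7.82% of all tested genes), 6 by DESeq2's Wald test (11.8%, beside 6.53%), 4 with the column number as replicate block (7.84%, beside 7.69%) and 1 of 11 on annotated transcripts alone (9.09%, beside 13.6%). Leaving out 1 library gave 3 to 19 called antisense genes, and 3 to 11 called sense genes against 6. The same-numbered libraries correlated at 0.039, -0.136 and -0.0843 in their deviations, so the numbers were not taken to pair them. DESeq2's Wald test gave no adjusted p for CALCRL-AS1, UBAC2-AS1 and CHMP3-AS1.

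The median log2 fold change of the tested antisense genes (0.06) was 0.13 with library totals, 0.59 without a filter, 0.16 on annotated transcripts alone and -0.0017 with the length trend removed. The fit without a filter took in all 272, of which 84 had 0 counts in siControl. By the row rule of the table none had 0 in siDelta2-4, so this median was pushed upwards and does not show a rise. The median ratio to the sense gene of exon-overlapping pairs (0.949) was 0.0352 on annotated transcripts alone. For pairs overlapping in gene bodies (0.572) it was 0.909 when exon-overlapping pairs were included and 0.00132 on annotated transcripts alone. The difference in library share, siDelta2-4 minus siControl (-0.0858 percentage points), was -0.159 without ribosomal protein and mitochondrial genome genes and 0.0244 on annotated transcripts, as a share of their own counts. The row rule also acts in the direction of the share on annotated transcripts. Its part, and the cause of the other shifts, was not tested. No named antisense gene that was called changed direction under any alternative.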
